A study of Mus musculus with 23 samples.

Results

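The cytochrome P450 family was examined in the epithelium of the mouse intestine. Its members were taken as every gene whose symbol in both deposited expression tables starts with Cyp followed by a family number, a subfamily letter and a gene number, which gave 99 of 22517 named genes in 38 subfamilies. Expression values did not enter this choice, and Cyp51 falls outside the pattern. Of the 99 genes, 38 reached 1 RPKM (a read count scaled to the length of the transcript and the depth of the library) in at least 1 group, and these lay in 18 subfamilies. Another 9 were listed at 0 in every group.

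P450 enzymes are haem proteins, most of them anchored in the endoplasmic reticulum, that insert an oxygen atom into a substrate using electrons passed on by the reductase Por. Members of the Cyp1, Cyp2 and Cyp3 families oxidise drugs, plant compounds and other foreign molecules, the Cyp4 family hydroxylates fatty acids and eicosanoids, and smaller families make or clear bile acids, steroid hormones, vitamin D and retinoic acid. In the small intestine they act mainly in absorptive enterocytes of the villus, where they contribute to first-pass metabolism of swallowed compounds. Many mouse P450 genes stand in tandem arrays of closely related copies.

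RNA came from 3 groups of adult mice on a mixed B6;129 background, with 3 libraries each, read as single ends of 75 bp. Wild-type villus epithelium was of genotype EedF/F; Cre-, and Eed-null villus epithelium was of genotype EedF/F; Villin-CRE, in which the recombinase acts in the intestinal epithelium. The Eed protein belongs to the Polycomb complex PRC2, which deposits a repressive methyl mark on histone H3. Intestinal stem cells (ISC) were sorted for high Lgr5-driven GFP from Eed+/+; Lgr5-EGFP-IRES-CREERT2 mice. All 3 groups received 1 to 2 mg tamoxifen on 5 days, so every level was measured after tamoxifen, and no group without it was used here. The Eed-null and wild-type villus groups differ in Cre as well as in Eed, which cannot be told apart. ISC were dissociated and sorted whereas villus epithelium was released with EDTA, so sorting and cell type cannot be told apart either. ISC and wild-type villus also differ in genotype, in the Eed alleles (Eed+/+ against EedF/F) and in the Lgr5-EGFP-IRES-CREERT2 allele. Genotype and cell type cannot be told apart in that comparison. No statement that the libraries came from separate mice was found, so the q values cover the spread between these libraries only.

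The authors deposited 1 RPKM value per group and 1 q value (a p-value adjusted over all tested genes) per comparison, and no value per library. Every RPKM given is therefore the authors' value for a group of 3 libraries, the read depth of a library is unknown, and the q value is the only measure of error. A gene was called higher or lower where q was at or below 0.05. Wild-type villus entered both comparisons, and its values in the stem cell comparison are 1.16 times those in the Eed comparison, because the tables were scaled separately. In the Eed comparison, Eed itself was at 3.00 RPKM in Eed-null villus and 3.05-fold higher, at 9.17 RPKM, in the control villus (the authors' deposited table lists q = 6.29e-06), where the value covers the whole gene. All 11 enterocyte markers were higher in villus and all 8 stem cell markers were higher in ISC. Paneth cell markers summed to 3635 RPKM in villus and 6425 in ISC, and the 3 that were tested (Mmp7, Itln1 and Ang4) were higher in ISC. Lyz1 went the other way, at 1021 RPKM in villus and listed at 0 in ISC, and was not tested. RNA of this crypt cell type was thus present in both groups. The part of Paneth cell RNA in the P450 values was not tested. Of 5 hepatocyte markers, Alb, Serpina1a and Fgb were at 0.427 RPKM or less in every group. Ttr was at 9.98 RPKM in ISC and 1.41 in villus (q = 2.03e-11 in the authors' deposited table), and Tat was at 1.91 RPKM in Eed-null and 0.325 in wild-type villus (q = 6.53e-06 in the authors' deposited table). The 9 fibroblast and smooth muscle markers were each at 0.207 RPKM or less.

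The villus P450 pool was large and concentrated in few genes. RPKM summed over the 99 members was 3812 in wild-type villus and 172 in ISC, a 22.1-fold difference. The fatty acid hydroxylase Cyp4f14 alone held 22.2% of the villus sum. Together with Cyp3a11 and Cyp3a13, which oxidise many drugs, the fatty acid hydroxylase Cyp4v3, and Cyp2d26, it held 63.1%, and 10 genes held 87.2%. In ISC the 5 highest members were Cyp4f14, Cyp4v3, Cyp2s1, Cyp2j6 and Cyp4f13 with 43.6% of the sum, so the smaller stem cell pool was spread over more genes.

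**Figure D1:**
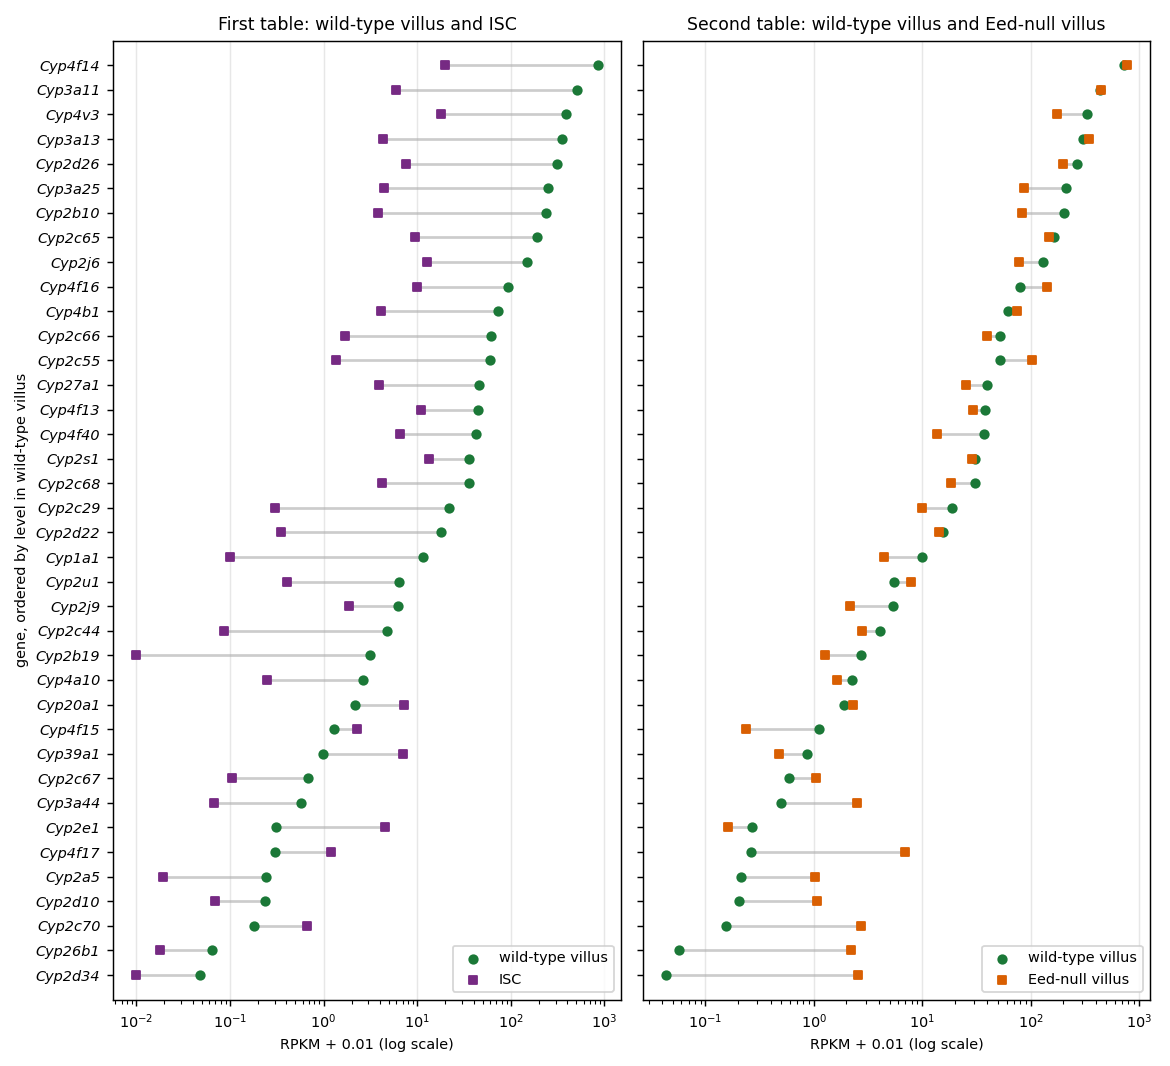
RPKM (log axis, with 0.01 added so that values listed at 0 can be drawn) of the 38 members that reached 1 RPKM in a group, in order of the wild-type villus level; circles are wild-type villus and squares are ISC (left panel) or Eed-null villus (right panel), each the authors' value for 3 libraries with no error available. Most squares lie far left of the circles in ISC, with Cyp4f14 at 19.7 against 847 RPKM, and closer to them in Eed-null villus, with Cyp4f14 at 782 against 729 RPKM.

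By subfamily, Cyp3a had the highest villus sum at 1114 RPKM, followed by Cyp4f at 1029, Cyp4v at 386, Cyp2c at 376, Cyp2d at 328, Cyp2b at 242 and Cyp2j at 157. The same subfamilies summed to 15.0, 51.4, 18.2, 17.8, 8.04, 3.84 and 14.6 RPKM in ISC. The order thus differed between the groups, with Cyp4f first in ISC and Cyp3a behind Cyp4v and Cyp2c. No error can be given for these sums, so neighbours such as Cyp3a and Cyp4f, or Cyp4v and Cyp2c in villus, cannot be separated.

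**Figure D2:**
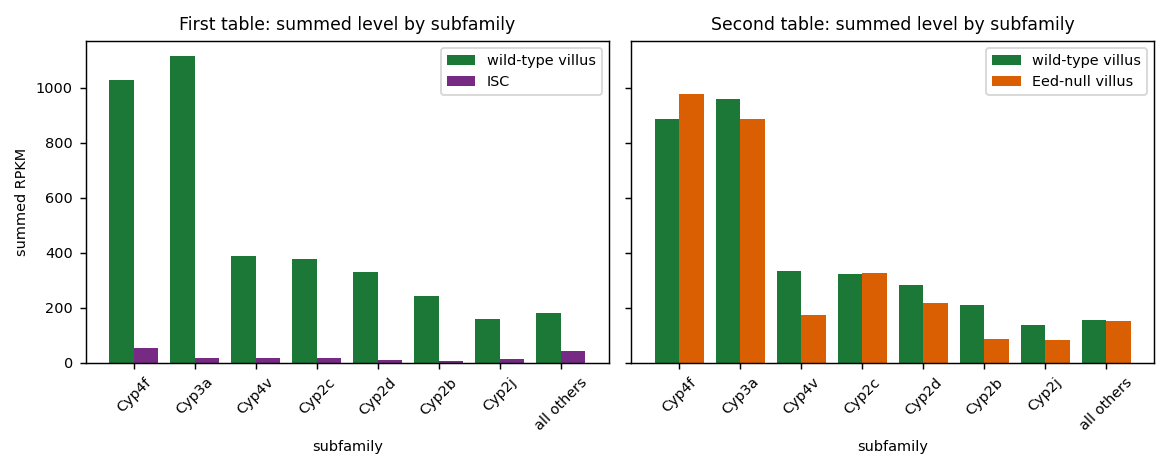
RPKM summed over the members of each of 7 subfamilies and over all others (linear axis from 0), in wild-type villus and ISC (left panel) and in wild-type and Eed-null villus (right panel); each bar is a sum of the authors' group values, with no error available. The Cyp3a and Cyp4f bars of 1114 and 1029 RPKM are the tallest in villus on the left, and the same subfamilies reach 15.0 and 51.4 RPKM in ISC.

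The first comparison asked which P450 genes differ between differentiated villus epithelium and Lgr5-high stem cells. Of the 43 members that the authors could test, 31 (72.1%) were higher in villus, where 30.5% of all tested genes were called in that direction, and 6 (14.0%) were higher in ISC, against 32.3% of all tested genes. The other 6 tested members were not called, and 56 were not tested. No gene whose higher group lay below 0.246 RPKM was tested, so a gene under that level in 1 group could be tested only if higher in the other. Among called members, Cyp1a1, Cyp2b9, Cyp2b19, Cyp2b23, Cyp2c38, Cyp2c44, Cyp2c67, Cyp3a44 and Cyp4a10 lay under it in ISC. Cyp2c70 and Cyp27b1 lay under it in villus. Nothing is read from the part of these genes in the counts. The villus-high genes with a value above 0 in ISC differed 2.66-fold to 129-fold, with a median of 19.02-fold over 28 genes. The ISC-high genes differed 3.31-fold to 14.9-fold with a median of 5.62-fold. Over the 31 members at 1 RPKM or more in either group, the median difference of log2(RPKM + 1) was 3.26, and over all 11623 genes at that level it was -0.02. Genes with low RPKM have smaller differences on this scale than their ratio would give.

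Roles were assigned by whole subfamily. Enzymes of foreign compounds were Cyp1a, Cyp1b, Cyp2a to Cyp2g, Cyp2s and Cyp3a, so this role also counts genes with other known substrates, such as Cyp2c70 and Cyp2b19. Among enzymes of foreign compounds, 20 of 23 tested members were higher in villus and 2 were higher in ISC. The shares of all tested genes were 30.5% and 32.3%. Of the 20, Cyp1a1, Cyp2b9, Cyp2b19, Cyp2b23, Cyp2c38, Cyp2c44, Cyp2c67 and Cyp3a44 lay below 0.246 RPKM in ISC. These could be tested only if higher in villus. Cyp3a11, the main drug-oxidising Cyp3a enzyme of mouse liver and gut, was at 512 RPKM in villus and 5.90 in ISC, 86.9-fold apart (the authors' deposited table lists q as 0). Cyp3a13, an enzyme of the same subfamily, was at 353 against 4.30 RPKM, and Cyp3a25 was at 248 against 4.38 RPKM, both with q listed at 0 in the authors' deposited table. These Cyp3a genes lie within the most abundant set in villus and dropped to a few RPKM in ISC. Cyp3a44 was much lower throughout, at 0.563 RPKM in villus and 0.0578 in ISC (q = 0.000374 in the authors' deposited table). Cyp3a59 was at 0.445 and 0.371 RPKM and was not called (q = 0.734 in the authors' deposited table).

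Cyp1a1, the classical target gene of the aryl hydrocarbon receptor, had the largest ratio of the family, 129-fold, at 11.6 RPKM in villus and 0.0899 in ISC. Its close relative Cyp1a2, a liver enzyme, was at 0.0249 RPKM in villus and was not tested. Cyp2b10, a target of the receptor CAR, was at 238 RPKM in villus and 3.82 in ISC, a 62.2-fold difference. Of its subfamily, Cyp2b19, a keratinocyte arachidonic acid epoxygenase, was at 3.14 RPKM in villus and listed at 0 in ISC (q = 7.68e-10 in the authors' deposited table). Cyp2b9 and Cyp2b23 were also called higher in villus, at 0.656 and 0.455 RPKM, and both were listed at 0 in ISC. A listed 0 has no fold, and since depth is unknown it sets no upper limit.

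Of the 16 Cyp2c genes, enzymes of drugs and of arachidonic acid, 8 of 9 tested were higher in villus. The share of all tested genes was 30.5%, and Cyp2c38, Cyp2c44 and Cyp2c67 could be tested only if higher in villus. Cyp2c65 led with 190 RPKM in villus and 9.40 in ISC, followed by Cyp2c66 with 60.7 and 1.69 and Cyp2c55 with 60.5 and 1.34. The largest Cyp2c ratio was that of Cyp2c29, 75.5-fold, at 22.1 against 0.293 RPKM. Cyp2c70, which makes muricholic bile acids in mouse liver, went the other way at 0.169 RPKM in villus and 0.653 in ISC (q = 0.0161 in the authors' deposited table). The other called members were Cyp2c68, Cyp2c44, Cyp2c38 and Cyp2c67, with ratios of 8.48, 61.6, 17.7 and 6.90. In the Cyp2d subfamily, Cyp2d26 was at 310 against 7.57 RPKM and Cyp2d22 at 18.0 against 0.341, and the other 8 members were not tested. Cyp2s1, an enzyme expressed mainly outside the liver, had the smallest villus excess, 2.66-fold, at 35.6 against 13.4 RPKM (q = 5.47e-09 in the authors' deposited table). Cyp2e1, which oxidises ethanol, had a 14.9-fold excess in ISC, with 4.49 RPKM there and 0.301 in villus (q = 4.2e-12 in the authors' deposited table).

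Among enzymes of fatty acids and eicosanoids, 10 of 14 tested members were higher in villus and 1 was higher in ISC. The shares of all tested genes were 30.5% and 32.3%, and Cyp4a10 could be tested only if higher in villus. Cyp4f14 was at 847 RPKM in villus and 19.7 in ISC, a 42.9-fold difference, and was the highest member in both groups. Cyp4v3, the mouse relative of the human fatty acid hydroxylase CYP4V2, was 21.2-fold higher in villus at 386 against 18.2 RPKM. Cyp4b1 was 17.8-fold higher at 72.7 against 4.08 RPKM, and the arachidonic acid epoxygenase Cyp2j6 was 11.8-fold higher at 150 against 12.8 RPKM. Ratios were smaller for Cyp4f16 (9.36), Cyp4f40 (6.61), Cyp4f13 (4.00) and Cyp2j9 (3.37), so genes of 1 subfamily differed widely in how far the stem cell level lay below villus. Cyp4f17 had a 4.07-fold excess in ISC, with 1.19 RPKM there and 0.292 in villus (q = 0.0022 in the authors' deposited table). Cyp4f15 was at 2.29 RPKM in ISC and 1.29 in villus and missed the threshold (q = 0.0841 in the authors' deposited table). Cyp2u1 and Cyp4a10, at 6.44 and 2.61 RPKM in villus, were also called higher there.

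Enzymes with narrow substrates were mostly low. Cyp27a1, the mitochondrial sterol hydroxylase of bile acid synthesis, was 11.8-fold higher in villus at 45.7 against 3.88 RPKM. Cyp39a1, an oxysterol hydroxylase of the same pathway, had a 7.16-fold excess in ISC, with 7.04 RPKM there and 0.983 in villus (q = 1.99e-15 in the authors' deposited table). Cyp7a1, the rate-limiting enzyme of bile acid synthesis in liver, was at 0.00393 RPKM in villus and listed at 0 in ISC. Cyp27b1, which makes the active form of vitamin D, was called higher in ISC but only at 0.279 against 0.0246 RPKM (q = 0.017 in the authors' deposited table), and the vitamin D enzyme Cyp2r1 was at 0.737 and 0.665 RPKM and was not called. Cyp20a1, whose substrate is not known, had a 3.31-fold excess in ISC, with 7.19 RPKM there and 2.17 in villus. The 6 steroid hormone genes and the 3 genes that clear retinoic acid were not tested, and the highest of them, the steroidogenic Cyp17a1, was at 0.411 RPKM in villus. The 5 members with symbols ending in -ps stayed below 1 RPKM in every group.

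**Figure D3:**
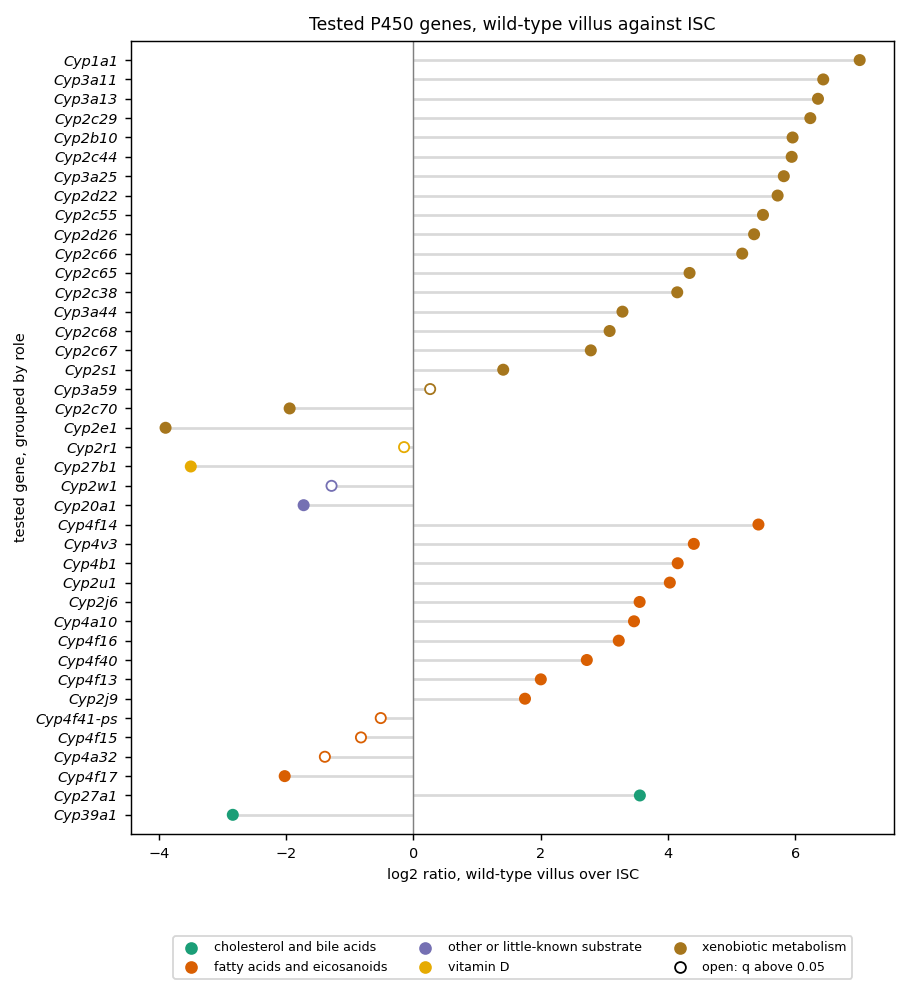
Log2 ratio of wild-type villus to ISC RPKM for each tested member with a value above 0 in both groups, grouped and coloured by role and ordered by ratio within a role; filled points have q at or below 0.05, and each ratio rests on 1 value per group, so no error bar is drawn. Cyp1a1 and Cyp3a11 lie at the villus end with log2 ratios of 7.01 and 6.44, and Cyp2e1 and Cyp27b1 lie at the ISC end with -3.90 and -3.50.

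Of the villus-high members, 28 of 31 had a value above 0 in the sorted stem cells. For the 31 villus-high members, the ISC level was 0 to 37.6% of the villus level with a median of 4.71%, and 17 lay below 5%. For the 9 at 100 RPKM or more in villus it was 1.15% to 8.51% with a median of 2.33%. The 11 enterocyte markers had ISC levels of 0.924% to 10.1% of villus with a median of 2.27%, and the part that residual enterocyte RNA has in the ISC values was not tested. In bulk RNA, fewer cells of a type and less RNA per cell cannot be told apart. Leukocyte markers summed to 111 RPKM in villus and 26.0 in ISC, and their part in the villus values was not tested.

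The proteins that supply P450 enzymes with electrons and haem, and the receptors that control their genes, were also compared. Of 20 tested genes for electron donors and haem supply, 10 were higher in villus and 2 were higher in ISC. Por, the reductase that feeds microsomal P450 enzymes, was at 158 RPKM in villus and 20.4 in ISC, a 7.77-fold difference. Cyb5r3 and Cyb5b, of the cytochrome b5 electron route, were at 304 against 47.7 RPKM and 292 against 46.4 RPKM. Of the 22 genes on this list 21 were measured, and Cyb5a had no entry under that symbol. Of 26 tested receptors and transcription factors known to control P450 genes, 12 were higher in villus and 5 were higher in ISC. Over all tested genes, 30.5% were higher in villus and 32.3% were higher in ISC. Nr1i3 (CAR) was at 53.9 against 3.62 RPKM, Nr1i2 (PXR) at 83.8 against 17.4 and Hnf4g at 178 against 19.3. Hnf4a was at 204 in villus and 187 in ISC (q = 0.737 in the authors' deposited table), and Ahr, the receptor upstream of Cyp1a1, was at 4.39 and 3.65 (q = 0.373 in the authors' deposited table).

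Promoters were read because the genes of an array differed in level while sharing descent. Among the 99 members, 71 matched a RefSeq promoter entry, giving 81 entries, and the 250 bases before each start were searched on both strands for 6 motifs, beside all 32851 entries. The HNF4 motif CAAAGTCCA was in 12.3% of member promoters (10 of 81) and 0.384% of all promoters. These 10 were Cyp2c40, Cyp2c65, Cyp2c67, Cyp2c68, Cyp2c69, Cyp2c70, Cyp3a11, Cyp3a16, Cyp3a41b and Cyp8b1, of which all but Cyp8b1 belong to the Cyp2c and Cyp3a arrays, whose copies are related by descent and are not independent. The CDX core TTTAT was in 63.0% against 37.3%, the GATA motif AGATAA in 18.5% against 9.99%, the nuclear receptor half-site AGTTCA in 17.3% against 11.8% and the AhR core GCGTG in 18.5% against 28.2%. The HNF1 motif, a palindrome searched with 1 open base at its centre, had no match in member promoters and was in 0.00913% of all. A match is a run of letters and not a shown binding site. Only these letters were counted, so a promoter without them is not shown to lack a site.

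Promoters of 8 genes from these arrays are printed because they pair copies with and without the HNF4 letters and with different levels. Each is from RefSeq on build GRCm38.p6, 5′ to 3′ on the strand of the gene and ending at the base before the start, with the HNF4 letters in capitals. Cyp2c65 is at chr19:39060756-39061005 and Cyp2c66 at chr19:39113648-39113897, both on the plus strand. On the minus strand, Cyp2c67 is at chr19:39649043-39649292, Cyp2c68 at chr19:39741102-39741351, Cyp2c70 at chr19:40187287-40187536, Cyp3a11 at chr5:145879855-145880104, Cyp3a44 at chr5:145805875-145806124 and Cyp3a25 at chr5:146009619-146009868.
Cyp2c65: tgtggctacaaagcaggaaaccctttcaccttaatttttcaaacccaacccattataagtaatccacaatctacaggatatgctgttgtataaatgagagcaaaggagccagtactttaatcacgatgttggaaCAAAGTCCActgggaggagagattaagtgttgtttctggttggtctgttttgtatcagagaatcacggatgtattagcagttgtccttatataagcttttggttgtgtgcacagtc
Cyp2c66: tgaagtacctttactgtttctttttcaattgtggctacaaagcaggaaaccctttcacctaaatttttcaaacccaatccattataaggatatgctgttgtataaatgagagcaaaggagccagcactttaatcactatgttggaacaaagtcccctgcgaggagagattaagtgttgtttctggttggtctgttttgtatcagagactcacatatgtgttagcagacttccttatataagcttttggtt
Cyp2c67: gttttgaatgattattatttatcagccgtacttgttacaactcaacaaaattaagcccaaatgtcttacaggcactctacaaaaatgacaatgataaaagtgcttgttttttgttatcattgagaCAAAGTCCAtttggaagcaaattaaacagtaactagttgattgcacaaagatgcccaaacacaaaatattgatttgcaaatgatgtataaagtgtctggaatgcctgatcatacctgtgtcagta
Cyp2c68: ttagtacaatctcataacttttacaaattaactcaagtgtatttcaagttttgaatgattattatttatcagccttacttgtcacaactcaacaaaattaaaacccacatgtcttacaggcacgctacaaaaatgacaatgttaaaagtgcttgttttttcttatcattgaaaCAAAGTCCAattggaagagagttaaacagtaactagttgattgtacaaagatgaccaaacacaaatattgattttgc
Cyp2c70: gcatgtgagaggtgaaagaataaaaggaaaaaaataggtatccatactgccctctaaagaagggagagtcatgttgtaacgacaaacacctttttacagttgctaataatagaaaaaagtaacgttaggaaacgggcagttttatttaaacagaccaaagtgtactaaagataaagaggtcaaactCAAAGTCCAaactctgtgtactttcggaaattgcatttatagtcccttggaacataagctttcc
Cyp3a11: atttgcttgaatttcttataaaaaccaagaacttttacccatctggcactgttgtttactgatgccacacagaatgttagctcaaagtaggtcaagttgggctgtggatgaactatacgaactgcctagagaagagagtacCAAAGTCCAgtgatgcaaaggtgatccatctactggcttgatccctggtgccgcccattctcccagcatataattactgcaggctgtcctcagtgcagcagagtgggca
Cyp3a44: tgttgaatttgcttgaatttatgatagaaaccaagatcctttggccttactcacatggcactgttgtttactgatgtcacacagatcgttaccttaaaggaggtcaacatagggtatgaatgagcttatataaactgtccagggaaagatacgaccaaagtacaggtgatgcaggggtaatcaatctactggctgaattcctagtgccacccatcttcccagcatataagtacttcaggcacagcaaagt
Cyp3a25: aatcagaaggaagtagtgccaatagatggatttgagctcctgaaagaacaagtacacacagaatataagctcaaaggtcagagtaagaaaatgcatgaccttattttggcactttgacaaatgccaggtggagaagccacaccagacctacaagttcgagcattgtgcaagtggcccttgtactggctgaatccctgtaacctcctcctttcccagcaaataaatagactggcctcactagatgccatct

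The pair Cyp2c65 and Cyp2c66 shared 74.6% of aligned promoter bases. Cyp2c65 holds the HNF4 letters from 116 bases before the start, and the nearest run in Cyp2c66 carries the substitution A9C, counted from 1 at the 5′ end of the motif with the motif's base first. The villus level was 190 RPKM for Cyp2c65 and 60.7 for Cyp2c66. Cyp2c67 and Cyp2c68 both hold the letters and shared 63.1% of aligned bases, at 0.667 and 35.5 RPKM in villus. In the Cyp3a array, Cyp3a11 holds the letters from 109 bases before the start, Cyp3a44 shared 72.5% of aligned bases with it and carries C7A, and Cyp3a25 carries T6G and C7T. The villus levels of Cyp3a11, Cyp3a44 and Cyp3a25 were 512, 0.563 and 248 RPKM. Cyp3a16 and Cyp3a41b, which hold the letters too, were at 0.178 RPKM and listed at 0. A relation between the letters and the levels was not tested.

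The second comparison asked which P450 genes differ in villus epithelium after loss of Eed. The family split evenly, with 12 of 48 tested members higher and 12 lower in Eed-null villus, each 25% of those tested. Over all tested genes, 7.9% were higher and 3.46% were lower. The 12 lower members were mostly abundant, with a median of 24.8 RPKM in wild-type villus, and differed 1.64-fold to 4.95-fold with a median of 2.36-fold. The 12 higher members were mostly scarce, with a median of 0.170 RPKM in wild-type villus. The 11 with a value above 0 there differed 1.78-fold to 76.9-fold with a median of 7.73-fold. The family summed to 3281 RPKM in wild-type and 2898 in Eed-null villus, and Cyp4f14 held 22.2% and 26.99% of these sums.

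**Figure D4:**
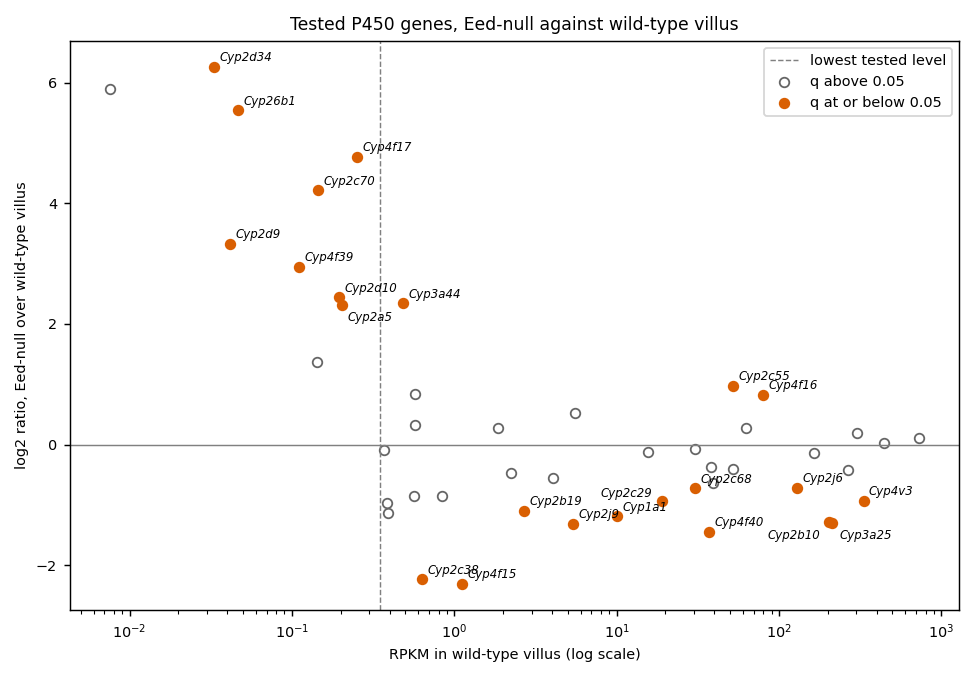
Log2 ratio of Eed-null to wild-type villus RPKM against the wild-type level (log axis) for each tested member with a value above 0 in both; filled points have q at or below 0.05. Genes called lower lie at wild-type levels from 0.633 to 332 RPKM, and 8 of the 11 plotted genes called higher lie left of the lowest level at which any gene was tested.

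The lowest level at which a gene was tested bears on this split. No gene whose higher group lay below 0.351 RPKM was tested, so a gene under that level in wild-type villus could be tested only if it was higher in Eed-null villus. Of the 61 members under it, 11 were tested and 9 called higher, beside 50.2% called higher among all tested genes there, and nothing is read from that count. Of the 38 members at or above it, 37 were tested, 3 (8.11%) were higher and 12 (32.4%) were lower. Among all 11782 tested genes at or above it, 5.23% were higher and 3.68% were lower. Over the 36 members at 1 RPKM or more in either group the median difference of log2(RPKM + 1) was -0.13, and over all 10895 such genes it was -0.08.

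By subfamily, the Eed-null and wild-type sums were 886 and 959 RPKM for Cyp3a, 975 and 885 for Cyp4f, 326 and 323 for Cyp2c, and 218 and 282 for Cyp2d. They lay further apart for Cyp4v (174 and 332), Cyp2b (85.4 and 208) and Cyp2j (81.3 and 135), each with the lower sum in Eed-null villus. These sums have no test.

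Among enzymes of foreign compounds, 7 of 28 tested members were lower and 8 were higher in Eed-null villus. Over all tested genes, 3.46% were lower and 7.9% were higher. Of the higher members, Cyp2a5, Cyp2c70, Cyp2d10, Cyp2d9, Cyp2d34 and Cyp2d37-ps lay below 0.351 RPKM in wild-type villus. They could be tested only if higher in Eed-null villus, so nothing is read from the count of higher members. Cyp2b10 fell from 204 RPKM in wild-type to 83.6 in Eed-null villus, 2.45-fold, with q = 3.07e-06 in the authors' deposited table. Cyp3a25 fell from 213 to 86.6 RPKM, 2.46-fold (q = 7.04e-05 in the authors' deposited table). Cyp1a1 fell 2.28-fold, from 10 to 4.39 RPKM (q = 0.000474 in the authors' deposited table). Over ISC, the villus excess of these genes was 62.2-fold, 56.6-fold and 129-fold, and wild-type villus is shared by both comparisons. That excess was 86.9-fold for Cyp3a11 and 82.1-fold for Cyp3a13, which were not called after Eed loss. Cyp4f15, called lower after Eed loss, was not called between villus and ISC. In Eed-null villus Cyp2b19 was lower at 1.26 against 2.70 RPKM, Cyp2c29 at 9.99 against 19.02, Cyp2c68 at 18.5 against 30.6 and Cyp2c38 at 0.135 against 0.633. Their q values were 0.0259, 0.00966, 0.0288 and 0.00113 in the authors' deposited table.

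Several abundant drug-oxidising genes were not called. Cyp3a11 was at 450 RPKM in Eed-null and 441 in wild-type villus (q = 0.988 in the authors' deposited table), and Cyp3a13 was at 347 and 303 (q = 0.808 in the authors' deposited table). Cyp2c65 was at 149 and 164 RPKM (q = 0.843 in the authors' deposited table), and Cyp2d26 was at 198 and 267 (q = 0.31 in the authors' deposited table). Cyp2c66, Cyp2d22 and Cyp2s1 had q values of 0.39, 0.849 and 0.929 in the authors' deposited table. A q above the threshold does not show equal levels.

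Cyp2c55, an arachidonic acid hydroxylase, was the only enzyme of this role called higher from 1 RPKM or more in wild-type villus, at 102 RPKM in Eed-null against 52.1 in wild-type villus, 1.96-fold (q = 0.0014 in the authors' deposited table). The others rose from levels below 1 RPKM. Cyp3a44 rose 5.09-fold, from 0.485 to 2.47 RPKM (q = 5.02e-06 in the authors' deposited table), and the bile acid enzyme Cyp2c70 rose 18.5-fold, from 0.146 to 2.70 RPKM (q = 5.39e-09 in the authors' deposited table). Cyp2d34 had the largest ratio, 76.9-fold, from 0.0331 to 2.55 RPKM (q = 3.36e-05 in the authors' deposited table). Its neighbours Cyp2d10 and Cyp2d9 were at 1.06 and 0.419 RPKM against 0.195 and 0.0417, and Cyp2d37-ps was at 0.547 RPKM and listed at 0 in wild-type villus. Cyp2a5, which oxidises coumarin and nicotine, was at 1.01 against 0.203 RPKM. Cyp2d12 was at 0.451 against 0.0076 RPKM and was not called (q = 0.155 in the authors' deposited table), and Cyp2d13 was at 0.302 RPKM, listed at 0 in wild-type villus and not tested. Each of the called genes other than Cyp2c55 reached at most 2.70 RPKM. Reads of near-identical copies in the Cyp2a, Cyp2c, Cyp2d, Cyp3a, Cyp4a and Cyp4f arrays may be split or shared between genes, so values of single genes there are uncertain.

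Among enzymes of fatty acids and eicosanoids, 5 of 14 tested members were lower and 3 were higher, beside 3.46% and 7.9% of all tested genes. Of the higher members, Cyp4f17 and Cyp4f39 lay below 0.351 RPKM in wild-type villus and could be tested only if higher in Eed-null villus. Cyp4v3 fell from 332 to 174 RPKM, 1.91-fold (q = 0.00522 in the authors' deposited table), the largest absolute decrease of a called member. Cyp2j6 fell from 129 to 78.5 RPKM (q = 0.0346 in the authors' deposited table), and Cyp2j9 fell from 5.36 to 2.16 RPKM (q = 0.00184 in the authors' deposited table). Both tested members of the Cyp2j epoxygenase subfamily were thus lower. Cyp4f40 fell from 36.9 to 13.6 RPKM (q = 2.69e-07 in the authors' deposited table), and Cyp4f15 fell from 1.11 to 0.225 RPKM (q = 0.000232 in the authors' deposited table). In the same array Cyp4f16 rose from 79.9 to 142 RPKM (q = 0.00481 in the authors' deposited table), and Cyp4f17 rose from 0.252 to 6.87 RPKM (q listed at 0 in the authors' deposited table). Cyp4f39, known as an omega-hydroxylase of skin ceramide lipids, rose from 0.111 to 0.855 RPKM (q = 3.84e-05 in the authors' deposited table). Cyp4f14, Cyp4f13 and Cyp4b1 were not called, at 782, 29.4 and 75.7 RPKM in Eed-null villus against 729, 38.0 and 62.5.

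The Cyp4f, Cyp2c and Cyp3a arrays held both higher and lower genes and the called Cyp2d genes were all higher, in coordinates the deposited tables give on build mm9. The 4 called Cyp2d genes, and Cyp4f39, Cyp4f17 and Cyp2c70, lay below 0.351 RPKM in wild-type villus. They could be tested only if higher in Eed-null villus, so nothing is read from their shared direction. On chromosome 17 the Cyp4f array runs from Cyp4f39 (chr17:32589667-32630265) to Cyp4f41-ps (chr17:33087905-33102661). Its first 3 genes, Cyp4f39, Cyp4f17 and Cyp4f16, were higher, the next 2, Cyp4f40 and Cyp4f15, were lower, and Cyp4f14, Cyp4f13 and Cyp4f41-ps were not called. On chromosome 15 the 4 higher Cyp2d genes lie between Cyp2d10 (chr15:82233275-82237624) and Cyp2d37-ps (chr15:82519179-82520488), while Cyp2d22 and Cyp2d26, the expressed genes at either end of the 10-gene array, were not called. On chromosome 19 the higher genes Cyp2c55 (chr19:39081508-39117177) and Cyp2c70 (chr19:40227850-40261776) are the first and last of 15 Cyp2c genes, and the lower genes Cyp2c29, Cyp2c38 and Cyp2c68 lie between them. On chromosome 5 the higher Cyp3a44 (chr5:146585558-146617450) and the lower Cyp3a25 (chr5:146788769-146821194) flank Cyp3a11, which was not called. Whether calls sit closer together than the gene order alone would give was not tested.

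**Figure D5:**
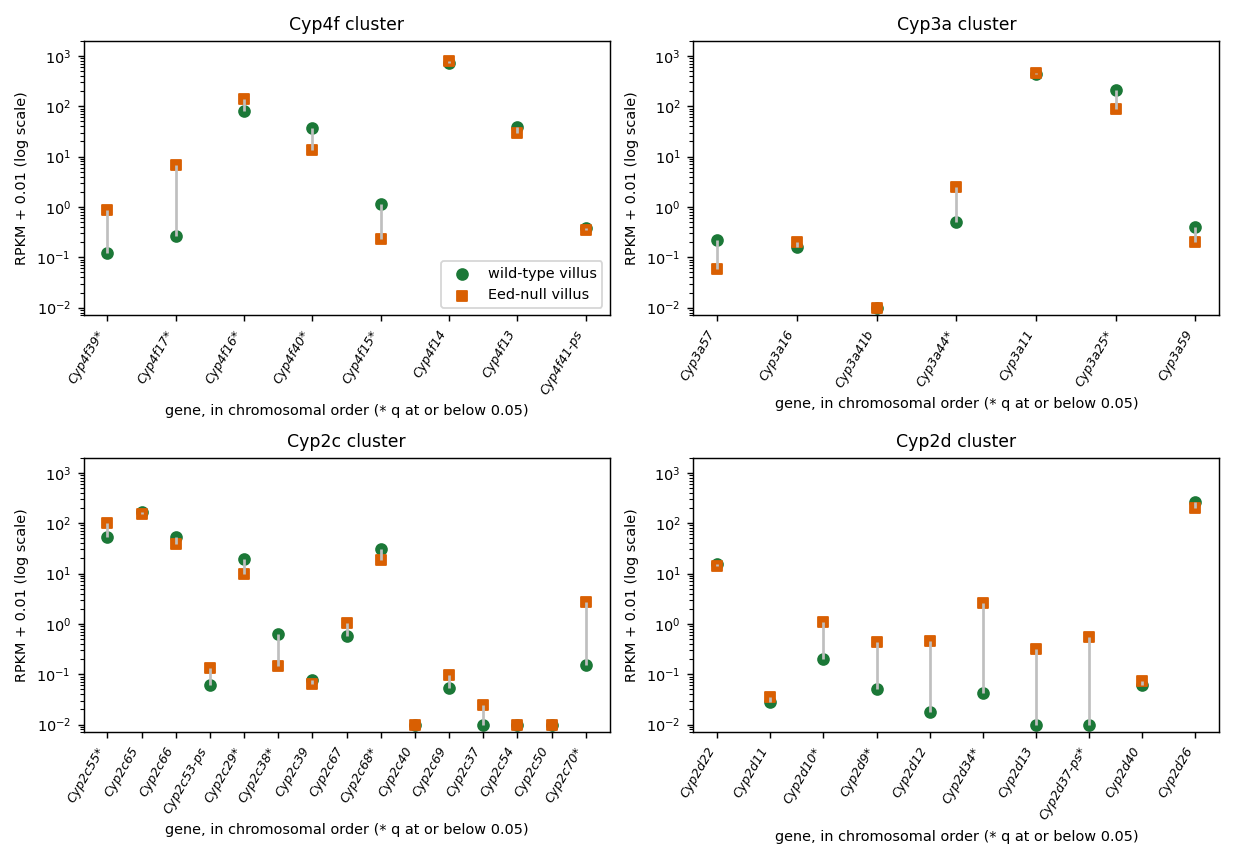
RPKM (log axis, with 0.01 added) in wild-type villus (circles) and Eed-null villus (squares) of the genes of the Cyp4f, Cyp3a, Cyp2c and Cyp2d arrays in chromosomal order, where an asterisk marks q at or below 0.05 and each point is the authors' value for 3 libraries with no error available. In the Cyp4f array the squares lie above the circles for Cyp4f39, Cyp4f17 and Cyp4f16 and below them for Cyp4f40 and Cyp4f15; in the Cyp2d array the called genes lie between Cyp2d22 and Cyp2d26.

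Among members of the narrow-substrate roles, which leave out Cyp2c70, 1 gene was called, from below 0.351 RPKM in wild-type villus. Cyp26b1, which clears retinoic acid, rose 46.6-fold, from 0.0467 to 2.18 RPKM (q = 4.03e-14 in the authors' deposited table), while Cyp26a1 and Cyp26c1 stayed at 0.0426 and 0.0238 RPKM and were not tested. Cyp27a1 was at 25.4 against 39.3 RPKM (q = 0.0552 in the authors' deposited table). Cyp39a1 and Cyp20a1, both ISC-high, were at 0.470 and 2.28 RPKM in Eed-null villus against 0.846 and 1.87, and were not called. Cyp2e1 and Cyp27b1, also ISC-high, were at 0.153 and 0.0576 RPKM in Eed-null villus and were not tested.

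After Eed loss, 1 of 20 tested genes for electron donors and haem supply was higher and 1 was lower. The haem-degrading Hmox1 rose from 0.926 to 3.33 RPKM (q = 0.000232 in the authors' deposited table). The haem synthesis enzyme Alad fell from 59.0 to 37.5 RPKM (q = 0.0434 in the authors' deposited table). Por was at 109 against 136 RPKM (q = 0.513 in the authors' deposited table). Of 27 tested receptors and factors, 2 were higher and 4 were lower. Over all tested genes, 7.9% were higher and 3.46% were lower, and nothing is read from the small counts of either list. The retinoic acid receptors Rarg and Rarb rose from 0.352 to 2.61 and from 0.174 to 0.860 RPKM. Ppara, Cdx2, Nr1h3 and Nr5a2 fell, from 17.1 to 8.37, 61.0 to 31.1, 48.3 to 26.1 and 5.69 to 3.10 RPKM. Nr1i2 was at 60.2 against 72.1 (q = 0.597 in the authors' deposited table), Nr1i3 at 47.0 against 46.4 (q = 0.994 in the authors' deposited table) and Ahr at 2.30 against 3.78 (q = 0.0642 in the authors' deposited table). Of 3 tested epoxide hydrolases, which act on epoxides that P450 enzymes form, 1 was higher and none was lower, and nothing is read from this count. The higher gene, Ephx1, rose from 10.01 to 169 RPKM (q listed at 0 in the authors' deposited table). Ephx2 was at 222 against 339 RPKM and was not called (q = 0.108 in the authors' deposited table).

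Markers of cell state and gut position also moved in this comparison. Of the 11 enterocyte markers none was called higher and 2 were lower, Lct from 328 to 168 RPKM and Treh from 297 to 135. Both distal small intestine markers were lower, Fabp6 at 251 against 1444 RPKM and Slc10a2 at 8.65 against 23.9, and the proximal marker Gata4 was at 37.5 against 35.8 (q = 0.941 in the authors' deposited table). Goblet cell markers summed to 12532 against 9642 RPKM, Paneth cell markers to 4473 against 3129 and leukocyte markers to 60.7 against 95.4. Hepatocyte markers summed to 4.06 against 1.78 RPKM, with Tat the 1 member called higher. The part of these differences in the P450 calls was not tested.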

How the data were processed

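RNA-seq of 9 libraries in 3 groups was used, and 14 chromatin libraries were left out (not analysed here). The authors deposited RPKM per gene and group, named as such in the header of the stem cell table. The Eed table's header names no unit. Its values were read as RPKM because its wild-type villus values are those of the first table divided by one factor (median 1.16193, range 1.16192 to 1.16194 over 10353 genes). The authors deposited p-values and q-values per gene from their own test, with a status column that marks untested genes. Per the submitters' processing notes, TopHat2 2.0.6, Cufflinks 2.0.1, Bowtie and Cuffdiff were used with build mm9; roles, the annotation and the handling of reads that match several genes are not given in the sources used here. Whether the tables' start coordinates count from 0 or 1 is not stated.

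Members were found by symbol, and calls used the authors' q at or below 0.05 as deposited. No model was fitted, since a table holds 1 value per group. Ratios, sums, medians of log2(RPKM + 1) and motif matches were computed with Python 3.11.15, pandas 2.3.3, numpy 2.4.6 and biopython 1.88, and figures were drawn with matplotlib 3.10.9. The code was tested on simulated data. Values were compared within a table only.

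The members and gene lists were chosen with earlier results of these data known. Members were named where they were among the 20 with the highest RPKM, each gene taken at its highest group, were called after Eed loss, were among the 12 largest called differences per direction between villus and ISC, reached 1 RPKM or more opposite a group listed at 0, or were the sole measured member of a role. List genes were named up to 4 per list by size of change, with Por, Ahr, Nr1i2, Hnf4a and Eed. Other genes, such as Cyp2c44, Cyp2c67, Cyp2b9, Cyp2b23, Cyp2u1, Cyp2r1, Cyp3a59, Cyp4a10, Cyp1a2, Cyp3a16, Cyp3a41b, Cyp7a1, Cyp17a1, Cyp26a1, Cyp26c1, Cyp2d12 and Cyp2d13, were named after their values were seen. The alternatives were a q of 0.01, a level of 1 RPKM in the higher group, a ratio of at least 2, a pseudocount of 0.1, tested members only, no members sharing a locus, and centring on the median log2 ratio.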

Additional observations from a re-analysis of the deposited data

How the results depend on the processing

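Counts of members called stayed within 1.5 times under every alternative run. Centring kept the deposited q values, and no tested member shared a locus entry, so those alternatives could hardly change the counts. Higher in villus ranged from 26 to 31 and higher in ISC from 4 to 6; higher in Eed-null ranged from 9 to 12 and lower from 8 to 12. At q of 0.01 the calls of Cyp27b1 and Cyp2c70 between villus and ISC, and of Cyp2b19, Cyp2c68, Cyp2d9, Cyp2d37-ps and Cyp2j6 after Eed loss, were lost. The villus minus ISC median of 3.26 became 2.05 over tested members, which adds low genes with small differences on this scale. The Eed-null minus wild-type median of -0.13 became -0.026 after centring, which subtracts the median log2 ratio of -0.10. Centring also turned the log2 ratio of Cyp2s1 after Eed loss, not called, from -0.08 to 0.028. No paired analysis was possible because the deposited tables hold 1 value per group, and for the same reason no library could be left out. Low genes are limited by depth, which is unknown.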
